A study of Mus musculus with 6 samples.

Results

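The genes described here are 35 antiviral interferon-stimulated genes, a set named by gene symbol for the proteins that sense, bind or destroy viral nucleic acid or that tune the interferon response. Of the 35, 33 had an array probeset annotated to that symbol alone, and these are the measured members among 19938 genes with such a probeset. Isg15, whose probeset carried several symbols, and Ifi44 had none and are not analysed here. The probeset with the highest mean over the 6 arrays stood for a gene. Mx1 and Cmpk2 lay in the dimmest 25% of probesets (mean log2 intensity up to 5.152) and were left out of the test, so 31 members were tested among 14994 genes.

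The cells were KSL SLAM cells, a rare population of mouse marrow rich in blood stem cells, sorted as negative for lineage markers, positive for c-Kit, Sca-1 and CD150, and negative for CD48 and CD41. In the G-CSF group the mice received granulocyte colony-stimulating factor (G-CSF) under the skin at 125 mcg/kg, 2 injections a day, and the samples are labelled 7 days. In the PBS group they received PBS, which the series design calls saline, also labelled 7 days. Each group had 3 single-channel MoGene 1.0 ST arrays, and each array held RNA pooled from 5 to 10 mice, the pools being independent. The labels used here name no strain, sex or age. A pool hides the spread between its mice, and amplification of the RNA preceded hybridisation.

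Interferons of type I bind the receptor formed by Ifnar1 and Ifnar2, and the kinases Jak1 and Tyk2 then activate transcription factors, Stat2 among them. Together with Irf9, Stat2 works in the complex ISGF3, which binds interferon-stimulated response elements near the start of the genes described here. In blood stem cells a low level of these genes is known without infection, and acute interferon is known to push dormant stem cells into cycle. G-CSF itself signals through another receptor, Csf3r, and mainly through Stat3.

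The response element was looked for in the 250 bases before the annotated starts (RefSeq, GRCm38.p6) as GAAA, any 2 bases and GAAA again, on either strand (TTTC, 2 bases and TTTC on the other). Promoters were at hand for 25 of the 35 members, and 8 of them (32.0%) held a match, against 3.46% of 27025 genes. The matches lay in Ifit1, Ifit3, Oas1a, Oas3, Rsad2, Bst2, Isg15 and Trim30a, and some of them overlap each other. Shown 5′ to 3′ with the matches in capitals are the promoters of Ifit1, Ifit3 and Rsad2, which differed most between the groups among the matched members, and of Oas3, which differed little. They lie at chr19:34640639-34640888 (plus strand), chr19:34583279-34583528 (plus strand), chr12:26456453-26456702 (minus strand) and chr5:120777660-120777909 (minus strand).
Ifit1: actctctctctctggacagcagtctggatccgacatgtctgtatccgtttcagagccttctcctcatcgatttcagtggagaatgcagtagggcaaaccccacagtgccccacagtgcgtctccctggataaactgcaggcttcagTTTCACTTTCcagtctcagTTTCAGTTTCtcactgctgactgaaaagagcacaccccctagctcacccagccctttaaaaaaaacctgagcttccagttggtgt
Ifit3: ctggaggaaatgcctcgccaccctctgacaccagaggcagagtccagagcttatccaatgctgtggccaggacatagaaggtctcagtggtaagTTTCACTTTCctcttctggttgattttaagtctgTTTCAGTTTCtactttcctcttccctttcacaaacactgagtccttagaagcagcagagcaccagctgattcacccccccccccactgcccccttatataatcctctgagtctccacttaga
Rsad2: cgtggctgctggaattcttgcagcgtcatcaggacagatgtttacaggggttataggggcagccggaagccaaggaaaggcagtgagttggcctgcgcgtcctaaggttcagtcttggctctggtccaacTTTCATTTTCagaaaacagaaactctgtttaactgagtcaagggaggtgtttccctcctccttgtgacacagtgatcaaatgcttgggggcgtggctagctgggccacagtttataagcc
Oas3: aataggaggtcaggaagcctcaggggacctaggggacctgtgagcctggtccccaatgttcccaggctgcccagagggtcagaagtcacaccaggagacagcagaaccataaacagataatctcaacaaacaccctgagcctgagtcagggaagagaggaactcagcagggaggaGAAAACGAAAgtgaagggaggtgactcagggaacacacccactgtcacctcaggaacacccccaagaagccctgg
Ifit1 and Ifit3 shared both decamers, TTTCACTTTC and TTTCAGTTTC, in that order. In Ifit1 they began 104 and 85 bases before the start, and in Ifit3 156 and 122 bases before it. Rsad2 held TTTCATTTTC at 120 bases, and Oas3 held GAAAACGAAA at 75 bases on the coding strand.

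No antiviral gene passed the test of G-CSF against PBS, and the differences of the set went both ways. By limma, 0 of the 31 tested members passed at an adjusted p under 0.05, where 4 of all 14994 genes did (0.0267%, each higher with G-CSF), and the smallest adjusted p of a member was 0.455. Unadjusted, 3 members had a p under 0.05, namely Ifit3, Usp18 and Rsad2, each with a negative difference (9.68% of members). Without PBS replicate 2 the count was 1, Ifit3. Over all genes tested that share was 3.3% for negative and 2.73% for positive differences. The members split almost evenly, with 15 positive and 16 negative differences, and their median difference was -0.01 on the log2 scale, beside 0.00 for all genes. Differences are G-CSF minus PBS in log2 intensity throughout, and per-array values are given in the order of replicates 1, 2 and 3.

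The groups were fully separate, with G-CSF lower, in 4 of the 31 members (12.9%), Ifit2, Ifit3, Rsad2 and Usp18, and the reverse order was found in 0. With 1 array left out the first count was 4 to 9 and the second 0 to 3, the evenest split being 4 and 3 without G-CSF replicate 1. Among all genes tested, 5.05% were separated with G-CSF lower and 5.77% with G-CSF higher on all 6 arrays. With 1 array left out these shares rose to 9.1% to 11.6% and 9.88% to 11.2%. For 19 of the 31 members the 95% interval of the difference lay wholly between -1 and 1, so a change of more than 1 log2 unit lay outside it. For the other 12 members the interval reached past 1 unit in at least one direction.

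**Figure D1:**
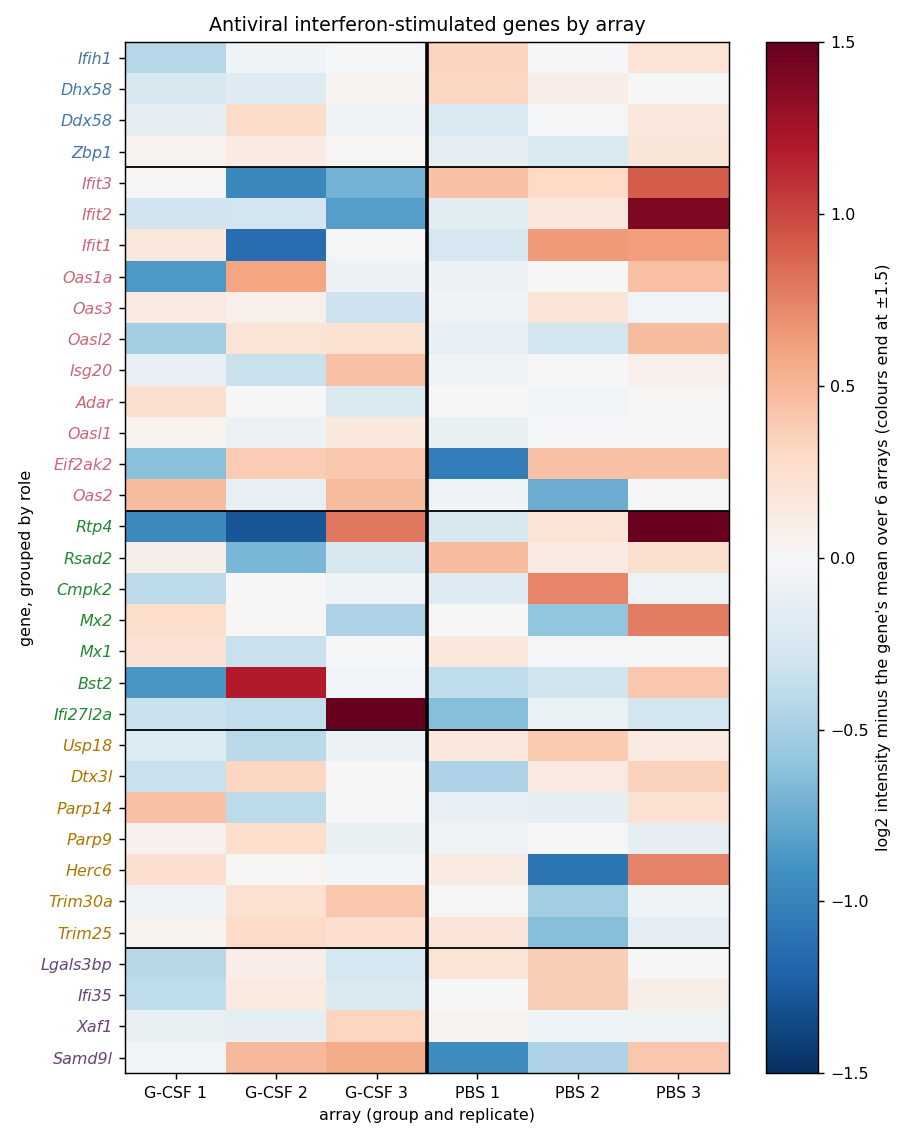
Log2 intensity of the 33 measured members on each array, minus the gene's mean over the 6 arrays, with G-CSF arrays left of the line and PBS arrays right of it. Rows are grouped by role (blue labels, sensors; pink, RNA-binding and RNA-modifying effectors; green, GTPases, membrane and nucleotide effectors; brown, ISG15, ubiquitin and ADP-ribosylation; purple, others). Ifit2, Ifit3, Rsad2 and Usp18 are lower on every G-CSF array, while most other rows are mixed within both groups.

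The sensors detect viral RNA or DNA and start the response. Ifih1 (MDA5), a sensor of long double-stranded RNA, had 7.33, 7.69 and 7.74 in G-CSF arrays, against 8.09, 7.73 and 7.96 in PBS arrays. The groups overlapped by a narrow margin, and the difference was -0.34 (SE 0.18, adjusted p = 0.918). Ddx58 (RIG-I), which recognises RNA ends that carry a triphosphate, had 7.93, 8.35 and 8.02 in G-CSF arrays, against 7.84, 8.06 and 8.23 in PBS arrays, and differed by 0.06 (95% interval -0.38 to 0.49). Dhx58 (LGP2), a helicase of the same family that tunes the other sensors, differed by -0.27 (SE 0.17), with 5.46 ± 0.15 in G-CSF arrays and 5.73 ± 0.16 in PBS arrays (mean ± SD, n = 3 each). Zbp1, which senses Z-form nucleic acid and can trigger necroptosis, differed by 0.12 (SE 0.17).

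Proteins of the Ifit family bind viral RNA and block its translation, and their genes held the most negative differences of the set apart from Rtp4. Ifit3 had 5.80, 4.82 and 5.07 in G-CSF arrays, against 6.22, 6.08 and 6.69 in PBS arrays. No value was shared between the groups, and the difference was -1.10 (SE 0.29, 95% interval -1.79 to -0.42), or 2.15-fold in favour of PBS, at a limma unadjusted p of 0.0065 and an adjusted p of 0.455. Ifit2 had 5.16, 5.17 and 4.63 in G-CSF arrays, against 5.28, 5.63 and 6.86 in PBS arrays. The groups were separate by a small gap, since PBS replicate 1 lay close to the G-CSF arrays and PBS replicate 3 far above, and the difference of -0.94 (SE 0.40, adjusted p = 0.837) was -0.47 without that array. Ifit1 had 6.58, 5.28 and 6.40 in G-CSF arrays, against 6.18, 7.07 and 7.05 in PBS arrays. Here the groups overlapped, G-CSF replicate 2 was the lowest of all, and the difference of -0.68 (SE 0.40, adjusted p = 0.932) was -0.28 without it.

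For Ifit2, 1 G-CSF array lay under the filter limit of 5.152, and for Ifit3, 2 did. The G-CSF mean was 4.99 for Ifit2, under the limit, and 5.23 for Ifit3. The limit is that of the filter and no measured background. How far values near it track RNA was not tested. Ifit3 has a close paralog, Ifit3b, whose transcripts may share its probes.

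**Figure D2:**
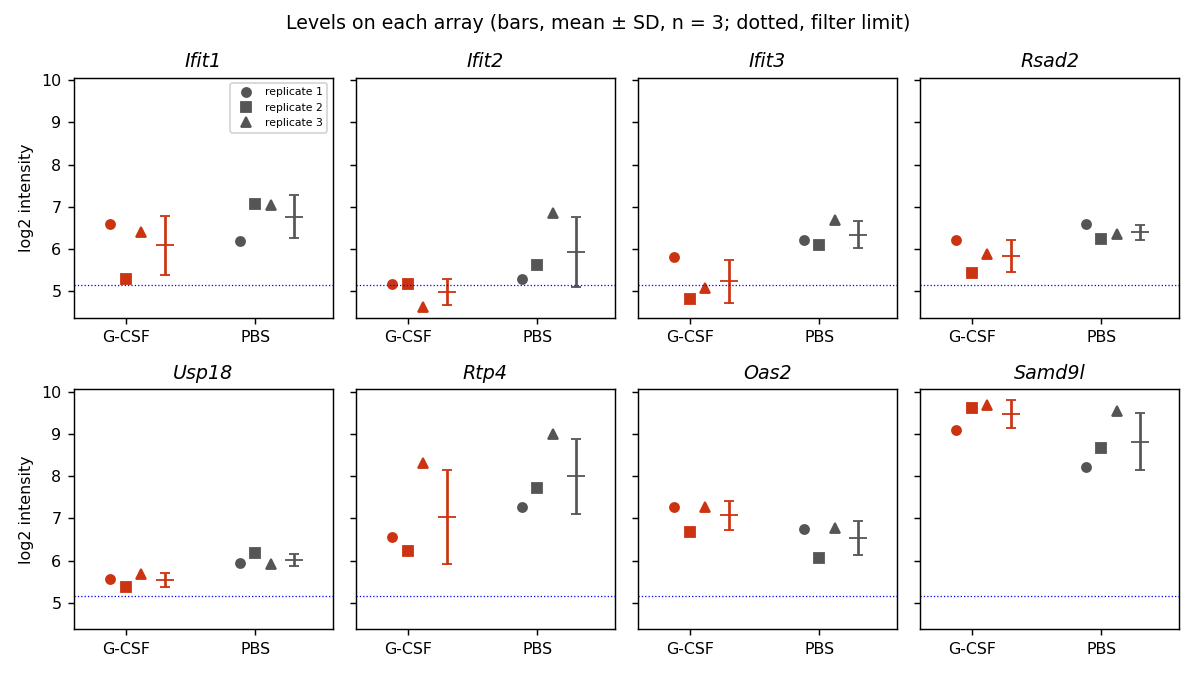
Log2 intensity on each array for 8 members chosen after their values were seen, G-CSF left and PBS right in each panel, with the symbol giving the replicate number, bars the mean ± SD (n = 3) and the dotted line the filter limit of 5.152. In Ifit2, Ifit3, Rsad2 and Usp18 the groups are separate, and in Ifit1, Rtp4, Oas2 and Samd9l they overlap.

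The oligoadenylate synthetases make a second messenger when they meet double-stranded RNA. Their genes did not share a direction. Oas2 had 7.28, 6.68 and 7.27 in G-CSF arrays, against 6.74, 6.06 and 6.78 in PBS arrays. Its difference of 0.55 (SE 0.26, adjusted p = 0.863) was positive, G-CSF replicate 2 lay among the PBS arrays, and without PBS replicate 2, the lowest array, the difference was 0.31. Oas1a had 6.15, 7.60 and 6.93 in G-CSF arrays, against 6.93, 7.02 and 7.46 in PBS arrays. The G-CSF arrays spanned the PBS arrays on both sides, and the difference was -0.24 (SE 0.36). Oas3 differed by -0.07 (95% interval -0.49 to 0.35), with 6.37, 6.32 and 5.93 in G-CSF arrays, against 6.19, 6.43 and 6.20 in PBS arrays. The synthetase-like genes lay close to 0, with Oasl1, known in mice to restrain translation of Irf7, at 0.09 (95% interval -0.26 to 0.44) and Oasl2 at -0.06 (-0.72 to 0.61). Oas1a belongs to a family of near copies, so its probes may read their transcripts too.

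Other enzymes that act on RNA had mean differences near 0, with unequal precision. Eif2ak2 (PKR), a kinase that stops translation when it binds double-stranded RNA, had 7.30, 8.31 and 8.33 in G-CSF arrays, against 6.89, 8.37 and 8.37 in PBS arrays. Replicate 1 was the low array in both groups, and the difference of 0.11 had an interval of -0.98 to 1.20. Adar, which edits adenosine in double-stranded RNA, differed by 0.01 (-0.38 to 0.41). Isg20, an exonuclease, differed by -0.01 (-0.53 to 0.50).

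Rsad2 (viperin), which makes a nucleotide that ends viral RNA chains, had 6.20, 5.43 and 5.87 in G-CSF arrays, against 6.59, 6.24 and 6.36 in PBS arrays. The groups were separate, by a gap much smaller than the spread of the G-CSF arrays. Its difference was -0.56 (SE 0.23, 95% interval -1.10 to -0.03, limma unadjusted p = 0.0419, adjusted p = 0.796), and -0.36 without G-CSF replicate 2. Cmpk2, a mitochondrial nucleotide kinase, lay under the filter's limit by its mean, with 4.86 ± 0.21 in G-CSF arrays and 5.16 ± 0.51 in PBS arrays (SD, n = 3 each). Mx1, an antiviral GTPase, was under the limit on all 6 arrays, at 4.35 ± 0.28 in G-CSF arrays and 4.43 ± 0.10 in PBS arrays (SD, n = 3 each). Its paralog Mx2 differed by -0.12 (SE 0.36), from 4.97 to 5.70 over the G-CSF arrays and 4.84 to 6.21 over the PBS arrays.

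The remaining genes of this group had some of the widest spreads between pools in the set. Rtp4, whose protein binds viral RNA and is also a receptor chaperone, had 6.56, 6.23 and 8.31 in G-CSF arrays, against 7.28, 7.72 and 9.001 in PBS arrays. Replicate 3 was high in both groups, the groups overlapped, and the difference of -0.97 had an interval of -2.44 to 0.51 (adjusted p = 0.938). Leaving out PBS replicate 3 gave -0.47, and leaving out G-CSF replicate 3 gave -1.60. Bst2 (tetherin), which holds budding virus at the cell surface, had 6.56, 8.62 and 7.40 in G-CSF arrays, against 7.05, 7.14 and 7.84 in PBS arrays. The G-CSF arrays held both its lowest and its highest value, and the difference was 0.18 (-0.99 to 1.36). Ifi27l2a, a small hydrophobic interferon-induced protein, had 6.54, 6.51 and 8.59 in G-CSF arrays, against 6.24, 6.77 and 6.60 in PBS arrays. Its difference of 0.68 (SE 0.54) rested on G-CSF replicate 3 and was -0.01 without it.

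ISG15 is a ubiquitin-like protein that Herc6 attaches to others in mice and that Usp18 removes. Usp18, which also blocks signalling at the type I interferon receptor, had 5.57, 5.37 and 5.69 in G-CSF arrays, against 5.94, 6.17 and 5.91 in PBS arrays. The groups were separate and tight (SD 0.16 in G-CSF and 0.14 in PBS arrays), and the difference of -0.46 (SE 0.16, 95% interval -0.85 to -0.08) had a limma unadjusted p of 0.0247 and an adjusted p of 0.741. Herc6 had 8.16, 7.92 and 7.86 in G-CSF arrays, against 8.04, 6.81 and 8.65 in PBS arrays. The PBS arrays lay on both sides of the G-CSF arrays, and the difference was 0.15 (SE 0.43).

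Both Trim genes had positive differences that did not pass. Trim25, a ubiquitin ligase that acts on RIG-I, had 7.84, 8.07 and 8.04 in G-CSF arrays, against 7.98, 7.15 and 7.65 in PBS arrays, and differed by 0.39 (SE 0.23, adjusted p = 0.932). Trim30a, known in mice to restrain Toll-like receptor signalling, had 9.67, 9.95 and 10.13 in G-CSF arrays, against 9.75, 9.21 and 9.67 in PBS arrays, and differed by 0.38 (SE 0.21, adjusted p = 0.924). In both genes PBS replicate 2 was the lowest array, and without it the differences were 0.17 for Trim25 and 0.21 for Trim30a. Trim30a has near copies that may share its probes. Parp9, Parp14 and Dtx3l, of which Parp9 and Dtx3l form a complex that modifies ubiquitin and Parp14 attaches single ADP-ribose units, differed by 0.15 (95% interval -0.23 to 0.52), 0.02 (-0.55 to 0.59) and -0.01 (-0.63 to 0.61).

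Samd9l, known for restraining translation and cell growth in blood cells, had 9.10, 9.63 and 9.70 in G-CSF arrays, against 8.22, 8.68 and 9.55 in PBS arrays. PBS replicate 3 lay among the G-CSF arrays, and the difference of 0.66 (SE 0.35, adjusted p = 0.898) was 1.03 without it and 0.36 without PBS replicate 1. Lgals3bp, a secreted binding partner of galectins, had 6.43, 6.94 and 6.58 in G-CSF arrays, against 7.05, 7.22 and 6.85 in PBS arrays. One PBS array lay just below the highest G-CSF array, and the difference was -0.39 (SE 0.19, adjusted p = 0.868). Ifi35, which forms a complex with Nmi, differed by -0.30 (SE 0.20, adjusted p = 0.94). Xaf1, a binding partner of the apoptosis inhibitor XIAP, differed by 0.05 (95% interval -0.37 to 0.47).

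**Figure D3:**
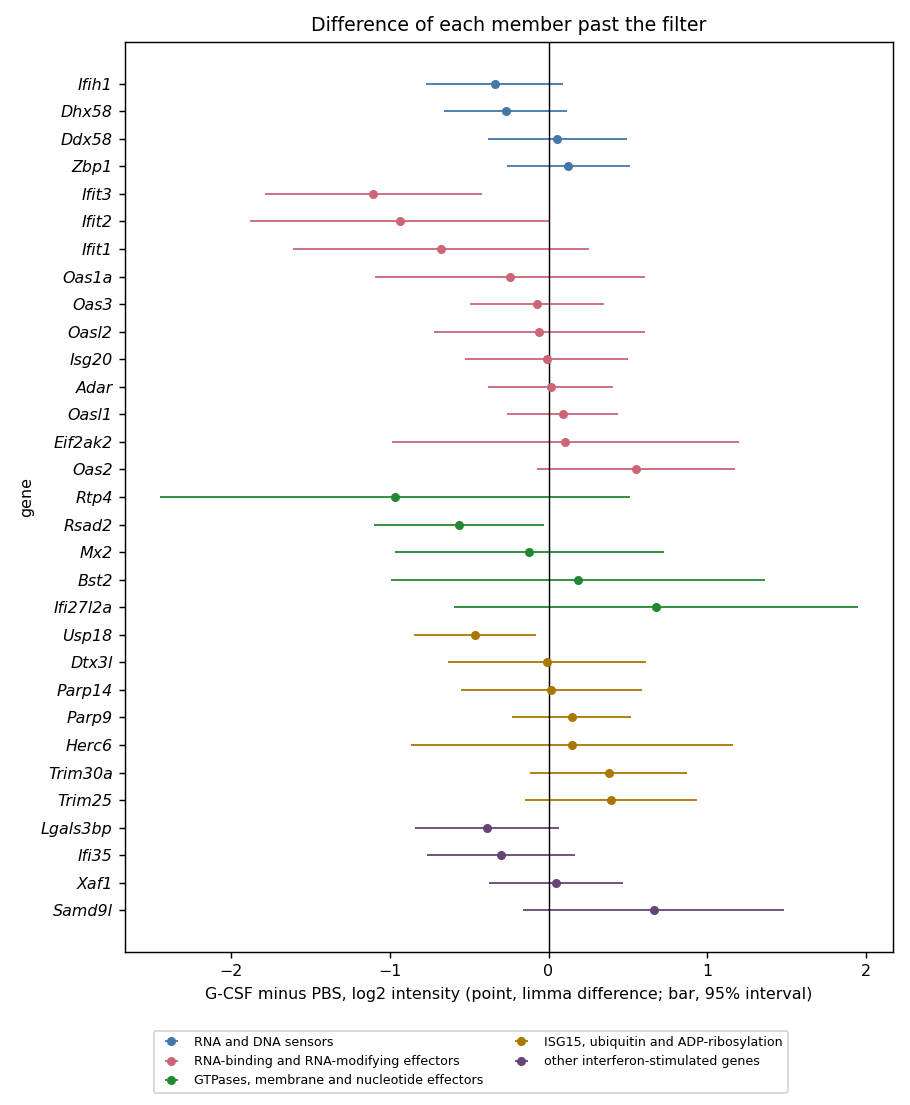
Difference between G-CSF and PBS arrays for the 31 tested members, in log2 intensity, with the limma 95% interval, grouped by role. The intervals of Ifit3, Rsad2 and Usp18 lie below 0 before adjustment and all others cross 0. Rtp4, Ifi27l2a and Bst2 have the widest intervals.

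By role, the median difference was -0.11 for the 4 sensors (2 positive, 2 negative) and -0.06 for the 11 RNA-binding and RNA-modifying effectors (4 positive, 7 negative). It was -0.12 for the 5 tested GTPase, membrane and nucleotide effectors (2 positive, 3 negative) and 0.15 for the 7 tested genes of ISG15, ubiquitin and ADP-ribosylation (5 positive, 2 negative). The 4 others had a median of -0.13 (2 positive, 2 negative). Of the tested members with a promoter, the 7 that held the response element had a median difference of -0.24 (5 negative, 2 positive, from -1.10 to 0.38), and the 15 without a match had 0.01 (7 negative, 8 positive, from -0.94 to 0.66). These are descriptions, and neither split was tested.

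Pools of the same treatment differed widely in some of these genes. In 10 of the 31 members the 3 arrays of a group spanned more than 1 log2 unit, a share not counted over all genes. The residual SD exceeded the median of all genes tested in 19 (61.3%). The median residual SD was 0.31 for the members and 0.26 for all genes. Rtp4 lay at percentile 99.0 of all genes tested by residual SD (1.01), Ifi27l2a at 98.1 (0.86), Bst2 at 97.3 (0.79) and Eif2ak2 at 96.2 (0.73). Usp18 lay at percentile 19.3 (0.15) and Oasl1 at 6.07 (0.10).

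The array with the high value was often PBS replicate 3, which held the highest PBS value in 18 of the 31 members. The share of all genes highest on that array is not given here. PBS replicate 3 also had the highest PBS mean over all 14994 genes tested, at 6.675. PBS replicates 1 and 2 had 6.602 and 6.622. Its log2 values over all probesets had the widest spread of the PBS arrays (SD 1.95 in PBS replicate 3, against 1.83 and 1.86 in PBS replicates 1 and 2). The mean over the 31 members was 6.87, 6.96 and 7.09 in G-CSF arrays, against 6.93, 6.96 and 7.31 in PBS arrays. The group means were 6.97 ± 0.11 and 7.07 ± 0.21 (SD, n = 3 each), so the difference of -0.09 was smaller than the spread between PBS arrays. Without PBS replicate 3 it was 0.03, and the members' median difference was 0.11, with 12 negative values in place of 16.

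The signalling genes upstream had differences of both signs. Of 17 tested genes for interferon receptors and their signalling, Usp18 aside, 0 passed by limma and 2 had an unadjusted p under 0.05, both with positive differences (11.8%, beside 6.04% of all genes in either direction). They were Il10rb, a receptor chain shared by interferon lambda and interleukin 10 (0.78, SE 0.25, adjusted p = 0.664), and Socs3, a feedback inhibitor of Stat3 signalling (0.52, SE 0.18, adjusted p = 0.723). In both the G-CSF arrays lay above the PBS arrays, and 1 PBS array of Il10rb lay under the filter's limit. With 1 array left out, 0 (without G-CSF replicate 2) to 3 (without PBS replicate 3) of the 17 had a positive difference at that p. Without PBS replicate 2, 1 had a negative difference at that p. The receptor chains Ifnar1 and Ifnar2 differed by 0.26 (SE 0.17) and -0.15 (SE 0.30), the kinases Jak1 and Tyk2 by 0.01 (SE 0.23) and -0.22 (SE 0.23). Stat2 differed by -0.11 (SE 0.23), Irf9 by -0.12 (SE 0.19), the inhibitor Socs1 by -0.15 (SE 0.16) and the interferon gamma receptor chain Ifngr1 by 0.67 (SE 0.37), or 0.31 without G-CSF replicate 2.

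Of the 17 listed interferon genes 14 had a probeset and 7 passed the filter, and by limma 0 passed the test or had an unadjusted p under 0.05. Ifna2 (0.45, SE 0.22), Ifna14 (0.40, SE 0.28), Ifnab (0.29, SE 0.23) and Ifng (-0.19, SE 0.16) had the smallest p. Interferon alpha genes are near copies, so their probesets may share signal. Among 18 tested genes of nucleic acid sensing upstream of interferon, limma likewise called 0, with 0 at an unadjusted p under 0.05. Their median difference was 0.01, with the adaptor Myd88 at 0.76 (SE 0.35), the interferon regulatory factor Irf7 at 0.31 (SE 0.18), the DNA receptor Tlr9 at 0.28 (SE 0.17) and the DNA sensor Aim2 at -0.54 (SE 0.37). Without PBS replicate 2 Myd88 was at 0.38 and Tlr9 at 0.17, and without PBS replicate 3 Aim2 was at -0.22.

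A longer list of other interferon-stimulated genes outside the members, interferon-inducible GTPases and antigen-presentation genes included, had more negative than positive differences, which was not tested for the list. Of its 48 tested genes 33 had negative and 15 positive differences, with a median of -0.19, and limma called 0. At an unadjusted p under 0.05 there were 5 with negative differences and 0 with positive ones (10.4%, beside 3.3% of all genes with a negative difference). In 7 of the 48 every PBS array exceeded every G-CSF array, while 5.05% of all genes were so ordered. PBS replicate 3 had the highest list mean, and without it 29 were negative and 19 positive, the median was -0.13 and 2 had an unadjusted p under 0.05. Without G-CSF replicate 3 that count was also 2, and with any other array left out it was 3 to 6. In these fits with 1 array left out, 2.37% to 4.47% of all genes had a negative difference at that p. Iigp1, an interferon-inducible GTPase, had 6.82, 6.25 and 6.62 in G-CSF arrays, against 7.22, 7.64 and 8.15 in PBS arrays. Its difference of -1.11 (SE 0.27, adjusted p = 0.403) was of the size of that of Ifit3. The guanylate-binding protein Gbp3 differed by -0.61 (SE 0.21, limma adjusted p = 0.7). Trim21, an antibody receptor and ubiquitin ligase, differed by -0.61 (SE 0.22, limma adjusted p = 0.745). Oas1b, a gene of the synthetase family, differed by -0.69 (SE 0.25, limma adjusted p = 0.749). The list mean was 7.15, 7.25 and 7.20 in G-CSF arrays, against 7.25, 7.38 and 7.50 in PBS arrays.

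**Figure D4:**
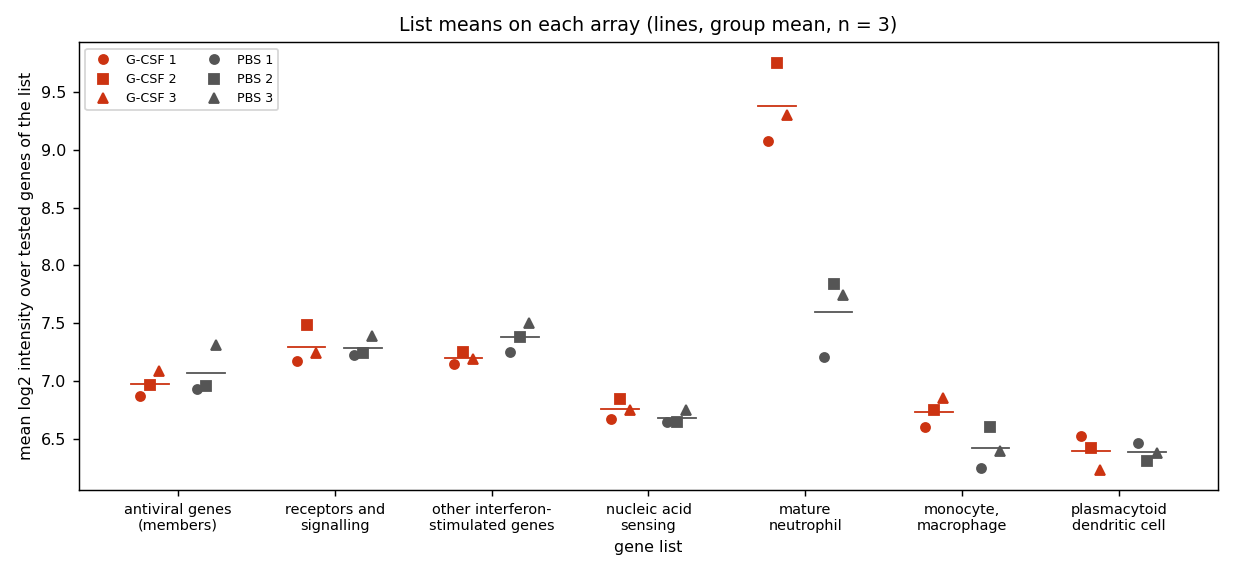
Mean log2 intensity over the tested genes of each list on each array, G-CSF left (red) and PBS right (grey), with lines at the group means (n = 3). The antiviral genes overlap between groups, with PBS replicate 3 the highest, while the mature neutrophil list is higher on every G-CSF array.

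Markers of other blood cells were read on the same arrays, and by limma 0 genes of the neutrophil, monocyte and plasmacytoid dendritic cell lists passed (smallest adjusted p 0.112, 0.477 and 0.541). The sort took cells negative for lineage markers, a gate meant to leave out mature neutrophils and monocytes. Of 26 tested mature neutrophil markers 25 lay higher on every G-CSF array than on any PBS array, beside 5.77% of all genes, and the same 25 of 26 had an unadjusted p under 0.05 (median difference 1.65), the exception being Ly6g at -0.19. Their summed intensity was 35602 to 47504 in G-CSF arrays and 11165 to 19790 in PBS arrays. Examples are Ltf (lactoferrin, 2.16), Camp (1.15) and S100a8 (0.95). The marker lists were chosen with earlier results of these data known, so their counts describe these arrays and are no independent support. Of 14 tested monocyte and macrophage markers 10 had positive differences (median 0.20, summed intensity 2677 to 3629 in G-CSF arrays and 1560 to 2558 in PBS arrays). By limma 5 of these had an unadjusted p under 0.05 (35.7% of the list, beside 2.73% of all genes with a positive difference). With 1 array left out this count ran from 2 (without PBS replicate 1) to 6 (without G-CSF replicate 1). Lyz2 was at 1.16, Ccr2 at 0.86 and Csf1r at 0.31. The 4 negative differences were small, the largest being that of C1qb at -0.06. For plasmacytoid dendritic cells, the main makers of interferon alpha, 7 of 10 tested markers other than Bst2 had positive differences (median 0.04, summed intensity 831 to 1029 in G-CSF arrays and 874 to 1062 in PBS arrays). Siglech differed by 0.21 (SE 0.22) and Tcf4 by -0.75 (SE 0.22), and Ccr9 was under the filter's limit. Array intensities have no true zero, so none of these markers can be given as absent. Whether such cells were in the sorted pools, and their part in the members' values, was not tested, and in sorted bulk cells fewer cells of a type and less RNA per cell cannot be told apart.

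Genes of the gate were checked after their values were seen. Kit had 9.28, 9.21 and 8.63 in G-CSF arrays, against 10.28, 9.92 and 9.85 in PBS arrays, so that the groups were separate (adjusted p = 0.374). Slamf1 (CD150) was above the filter's limit on all arrays, and Cd48, which the gate excludes, ran from 4.68 to 5.98 in G-CSF arrays and from 4.61 to 6.14 in PBS arrays. Itga2b (CD41), also excluded by the gate, read 6.21 ± 0.03 in G-CSF arrays and 6.37 ± 0.14 in PBS arrays (SD, n = 3 each). Median intensity differed little between arrays, from 56.2 to 61.7.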

How the data were processed

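Gene expression was measured in KSL SLAM cells on 6 arrays. The deposited values are intensities, which the authors made with RMA according to the submitters' processing notes. Neither software nor array set was given in the sources used here. Values of 35554 probesets ran from 2.7 to 19069 and so are linear, and log2 was taken first.

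Probesets were named through GEO's platform annotation (21789 with 1 symbol, 1621 with several, 12144 not listed), with symbols looked up in RefSeq by gene identifier. The dimmest 25% were left out. Groups were fitted with limma 3.58.1 (R 4.3.3, lmFit and eBayes, no covariate, two-sided, Benjamini-Hochberg over 14994 genes, threshold 0.05), with 3.23 prior degrees of freedom. The fit was also run on simulated data with known differences, and the outcome is not reported here. Spearman's rho between arrays was 0.861 to 0.895 within groups and 0.836 to 0.892 between them. The number of arrays limits the precision.

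Some items of the pathway lists are not reported here. The members and lists were chosen with earlier results of these data known. All members are named, with up to 4 genes of the smallest p per pathway list, fixed signalling genes and 3 markers per cell type. Further markers are named where they limit a count. Alternatives changed the filter, normalization, log offset, variance model, probeset rule, replicate block and arrays used.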

Additional observations from a re-analysis of the deposited data

How the results depend on the processing

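Under all 14 alternatives limma called 0 members in either direction, and the smallest adjusted p of a member was 0.308 (Ifit3 without G-CSF replicate 1). Over all genes the count of higher calls was 4, and it was 12 with quantile normalization again, 2 with arrays centred on the median, 2 with 16 added before log2, and 0 to 6 with 1 array left out (0 without G-CSF replicates 2 or 3 or PBS replicates 1, 2 or 3). Lower calls stayed at 0 in each. Ifit3 had a negative difference and an unadjusted p under 0.05 in all 13 alternatives that kept it (difference -1.39 to -0.84, adjusted p 0.308 to 0.88), Usp18 in 10 of 13 and Rsad2 in 9 of 14. The count of such members was 3, and it was 1 without PBS replicate 2 (Ifit3) and 1 with the dimmest 50% left out, which removed Ifit3 and Usp18. Members with G-CSF arrays below all PBS arrays numbered 4 and those above 0. With 1 array left out these were 4 and 3 (G-CSF replicate 1), 6 and 2 (G-CSF replicate 2), 9 and 1 (G-CSF replicate 3), 6 and 2 (PBS replicate 1), 5 and 0 (PBS replicate 2) and 6 and 2 (PBS replicate 3), where 9.1% to 11.6% of all genes lay below and 9.88% to 11.2% above. Leaving out 1 array moved the difference by over 1.5 times in 27 of the 31 members, Dhx58, Ifit3, Usp18 and Lgals3bp being the others. This measure is relative, so a difference near 0 passes it easily, and 15 of the 31 lay within 0.2 of 0. The share over all genes is not given here. In a check chosen after seeing the data, the median with 1 array left out was 1.34 to 1.90 for the neutrophil list and -0.19 to -0.13 for the other interferon-stimulated genes.

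The direction of 14 of the 31 members turned in at least 1 alternative, none of them past the threshold. With arrays centred on the median, Adar was at -0.00486, Parp14 at -1.46e-05 and the kinase Jak1 at -0.0110, and with quantile normalization again Isg20 was at 0.0217 and Dtx3l at 0.0222. With 1 array left out, the difference ran from -0.0704 to 0.15 for Ddx58, -0.60 to 0.13 for Oas1a, -0.15 to 0.0661 for Oas3, -0.21 to 0.18 for Oasl2, -0.39 to 0.44 for Eif2ak2, -0.11 to 0.12 for Adar, -0.23 to 0.15 for Isg20 and -0.45 to 0.23 for Mx2. It ran from -0.36 to 0.67 for Bst2, -0.0111 to 1.03 for Ifi27l2a, -0.37 to 0.56 for Herc6, -0.20 to 0.22 for Parp14, -0.24 to 0.16 for Dtx3l and -0.11 to 0.13 for Xaf1. Outside the members it ran from -0.26 to 0.12 for Stat2, -0.24 to 0.00218 for Irf9, -0.47 to 0.14 for Ifnar2, -0.16 to 0.17 for Jak1 and -0.00942 to 0.38 for Siglech. The cause was not tested. The mean over members differed by -0.16 to 0.03 with 1 array left out, 0.03 being without PBS replicate 3, and by -0.00158 with the dimmest 50% left out.

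The labels give both groups replicate numbers 1 to 3 but do not say what a number shares. Deviations from the group means correlated at 0.289, 0.0186 and 0.193 between same-numbered arrays. Differently numbered arrays were not compared in this way, so these values cannot settle whether the numbers pair the pools. The main fit took no pairing. With the replicate number as a block, 5 genes were called higher, 0 lower and 0 members. At an unadjusted p under 0.05 by limma, 3 of the 31 members were lower (Ifit3, Rsad2 and Rtp4) and 2 higher (Oas2 and Samd9l). Under the block 4.92% of all genes were lower at that p, beside 3.3% in the main fit, so the block raised the count over all genes too. The share of all genes higher under the block is not given here.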

Other observations

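Several members lie side by side among protein-coding genes in RefSeq, and such neighbours did not always share a direction. Rsad2 and Cmpk2 differed by -0.56 and -0.30, the second under the filter's limit, and Ifit2 and Ifit3 by -0.94 and -1.10. Parp14, Dtx3l and Parp9, in that order, differed by 0.02, -0.01 and 0.15, and Oasl2 and Oasl1 by -0.06 and 0.09. Oas2 and Oas3, also adjacent, differed by 0.55 and -0.07. On single arrays neighbours parted as well. PBS replicate 2 was the highest PBS array for Cmpk2 (5.74) and the lowest for Rsad2 (6.24).

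The element bound by STAT dimers, searched as TTC, any 3 bases and GAA (the same on both strands), was found in the promoters of 5 of 25 members (20.0%), Ifit2, Oas1a, Eif2ak2, Isg20 and Bst2, against 8.13% of 27025 genes. Among these 5, Oas1a and Bst2 also held the interferon-stimulated response element. Their differences ran from -0.94 for Ifit2 to 0.18 for Bst2.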
